A study of Mus musculus with 2 samples.

Results

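The cells described here were chosen from single-cell libraries of mouse dental pulp by a rule meant to pick out pericytes. A barcode was first kept if it held at least 500 genes, at least 1000 unique molecular identifiers (UMIs, 1 for each captured RNA molecule) and at most 10% mitochondrial UMIs. A kept cell counted as mural, the cell class of the vessel wall, if it had a UMI in at least 3 of Rgs5, Notch3, Pdgfrb, Cspg4, Abcc9 and Myh11 and none of Cdh5 (endothelium), Ptprc (leukocytes) or Sox10 (Schwann cells). Mural cells were selected if their summed UMIs of Kcnj8, Abcc9, Higd1b and Steap4 exceeded those of Myh11, Casq2 and Mustn1. Selection gave 342 of the 4012 kept cells, of which 117 of 1683 came from the Vegfr2 knockout library and 225 of 2329 from the control library. These 11 marker genes and 3 excluded genes chose the cells, so their levels are a description here.

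Pulp was taken at postnatal day 12 from C57BL/6 mice and digested with collagenase D, dispase and DNase. Cells that excluded propidium iodide, a dye that enters dead cells, were sorted and loaded on the Chromium 3' v3.1 platform. Of the libraries, 1 was made from mice labelled endothelial Vegfr2 knockout and 1 from control mice of the same strain and age. Vegfr2, the product of the Kdr gene, is the main receptor for vascular endothelial growth factor A on endothelial cells. The labels name neither the Cre driver nor the alleles of the controls, and give no sex or number of animals for either library. The comparison asks how pulp cells around vessels differ between mice labelled as lacking the receptor in endothelium and control mice. With 1 library per genotype there was no replicate, so no difference between the genotypes could be set against variation among mice, and the intervals below are 95% intervals that cover counting error only. UMIs are molecules captured from cells of 1 preparation, so genotype, preparation and sequencing run cannot be told apart.

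Pericytes lie within the basement membrane of capillaries, in direct contact with endothelial cells, which recruit them by secreting platelet-derived growth factor B to the receptor Pdgfrb. Kcnj8 and Abcc9 encode the pore and the regulatory subunit of the vascular ATP-sensitive potassium channel, which links the metabolic state of these cells to membrane voltage and vessel tone. Vascular smooth muscle cells, their relatives on arterioles and venules, share Rgs5, Notch3 and Pdgfrb and add a contractile apparatus built from smooth muscle actin (Acta2) and myosin (Myh11). In dental pulp pericytes are also studied as a source of mesenchymal progenitors.

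Measured against their markers, most of the selected cells did not carry a pericyte profile. Rgs5, a regulator of G-protein signalling abundant in mural cells, split the selection into separate groups. Of the 117 selected knockout cells, 37 (31.6%, exact binomial interval 23.3 to 40.9%) had at least 10 Rgs5 UMIs per 10000, as did 88 of the 225 selected control cells (39.1%, 32.7 to 45.8%). These are called Rgs5-high below and the remaining 80 knockout and 137 control cells Rgs5-low. The cut was set after the values were seen. Only 5 knockout and 11 control cells lay near it, between 2.5 and 40 per 10000. Median Rgs5 was 169 per 10000 in Rgs5-high knockout cells and 165 per 10000 in Rgs5-high control cells. In Rgs5-low cells it was 0.737 per 10000 in the knockout library and 0 in the control library.

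Rgs5-low cells instead carried genes of the pulp stroma. At least 10 UMIs per 10000 of Dcn, Lum and Pdgfra together (decorin and lumican, small matrix proteoglycans, and the platelet-derived growth factor receptor of fibroblasts) were found in 77 of 80 Rgs5-low knockout cells and 126 of 137 Rgs5-low control cells. The same held for 1 Rgs5-high cell in each library. No UMI of these genes was found in 27 of 37 Rgs5-high knockout cells and 69 of 88 Rgs5-high control cells. The stromal genes therefore sat in the cells with little Rgs5, and the groups hardly overlapped. Rgs5-low cells met the mural rule narrowly, with exactly 3 of the 6 mural genes in 72.5% of knockout and 73.7% of control cells. Set against the other cells with at least 4 of 8 pulp mesenchyme markers and no mural call (243 knockout and 362 control cells), Rgs5-low cells were at least 2-fold higher in both libraries for 6 of 8769 genes (0.0684%) and at least 2-fold lower for 11 (0.125%). Rgs5-high cells carry pericyte markers, but the rule and the cut used those markers, so they are no independent check of the label. In the Rgs5-low cells the label of pericytes goes against the data, and they are described by their rule and not given a cell type.

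**Figure D1:**
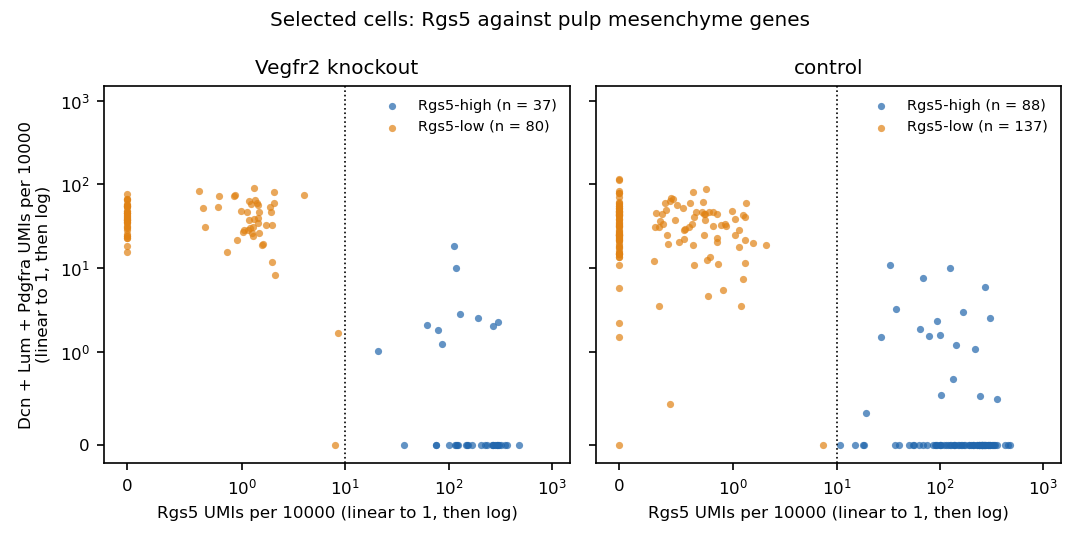
Rgs5 UMIs per 10000 (horizontal) against summed Dcn, Lum and Pdgfra UMIs per 10000 (vertical) in each selected cell, Vegfr2 knockout at left and control at right; both axes are linear to 1 and then logarithmic, and the dotted line marks 10 Rgs5 UMIs per 10000. The Rgs5-high cells (37 knockout, 88 control) lie at the lower right and the Rgs5-low cells (80 knockout, 137 control) at the upper left.

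The edges of the rule fell mostly among Rgs5-low cells. A margin of a single UMI selected 24 knockout and 46 control cells, of which 1 and 5 were Rgs5-high. Ties dropped 10 knockout and 36 control cells, of which 3 and 4 would have been Rgs5-high. A further 75 knockout and 104 control cells had 2 mural genes and met every other criterion, and 0 and 1 of them would have been Rgs5-high. Rgs5-high cells were selected with a wider margin, at a median of 13 UMIs of the 4 pericyte markers in knockout cells and 19 in control cells, against 3 and 2.5 UMIs of the 3 smooth muscle markers.

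The 2 libraries differed in ways that touch every genotype comparison below. The knockout library held 2563 barcodes and 17277162 UMIs and the control library 3487 barcodes and 35918862 UMIs. Rgs5-high cells had a median of 6557 UMIs in knockout and 8953.5 in control, and a median mitochondrial share of 5.46% and 5.13%. Cells with Y-linked UMIs and no Xist made up 51.6% of the Rgs5-high knockout cells that could be assigned (16 of them, against 15 with Xist only) and 6.33% of the Rgs5-high control cells (5, against 74). The mix of female and male cells was therefore unlike in the libraries. Besides shares of cells and counts of genes, values within Xist-only or Y-only cells were computed for 111 gene ratios and 65 list medians. Only some of these are given below. A ratio given without such a value is not shown to hold within either sex. The targeted gene, Kdr, stood at 640 UMIs per 1000000 (CPM) in the 140 kept knockout cells with at least 3 of 6 endothelial markers and at 1017 CPM in the 413 such control cells, a ratio of 0.630 (0.581 to 0.682). Kdr UMIs were found in 84.3% of these knockout and 91.3% of these control cells. Reads from the 3' end may lie outside the deleted part of the gene, in which case the level of Kdr does not check the deletion.

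Rgs5-high cells showed the markers that chose them and mural genes that did not. Summed over the 4 pericyte markers, the level was 2082 CPM in knockout and 2230 CPM in control Rgs5-high cells, 339 and 199 CPM in Rgs5-low cells, and 495 and 598 CPM in vascular smooth muscle cells. Macrophage-marker cells, which should lack these genes, stood at 6.88 CPM in the knockout and 3.51 CPM in the control library. The background from free RNA was thus low for these markers, and Kcnj8 UMIs were found in 94.6% of knockout and 98.9% of control Rgs5-high cells, against 1.81% and 1.98% of macrophage-marker cells. Rgs5 UMIs were more widespread, and whether they came from free RNA was not tested. Macrophage-marker cells held an Rgs5 UMI in 24.7% of knockout and 32.3% of control cells (median depth 9755.5 and 15718 UMIs). The shares were 53.8% and 48.9% of Rgs5-low cells (8890.5 and 13423 UMIs) and 17.7% and 18.2% of the other pulp mesenchyme cells. Rgs5 counts toward the mural call, which Rgs5-low cells had to pass and the other 2 sets to fail. These shares therefore describe the selection. Endothelial markers summed to 56.3 CPM in knockout and 103 CPM in control Rgs5-high cells, with 3 and 2 of the 6 markers at 0. Macrophage markers summed to 116 and 50.9 CPM, with 3 and 1 of 7 at 0.

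**Figure D2:**
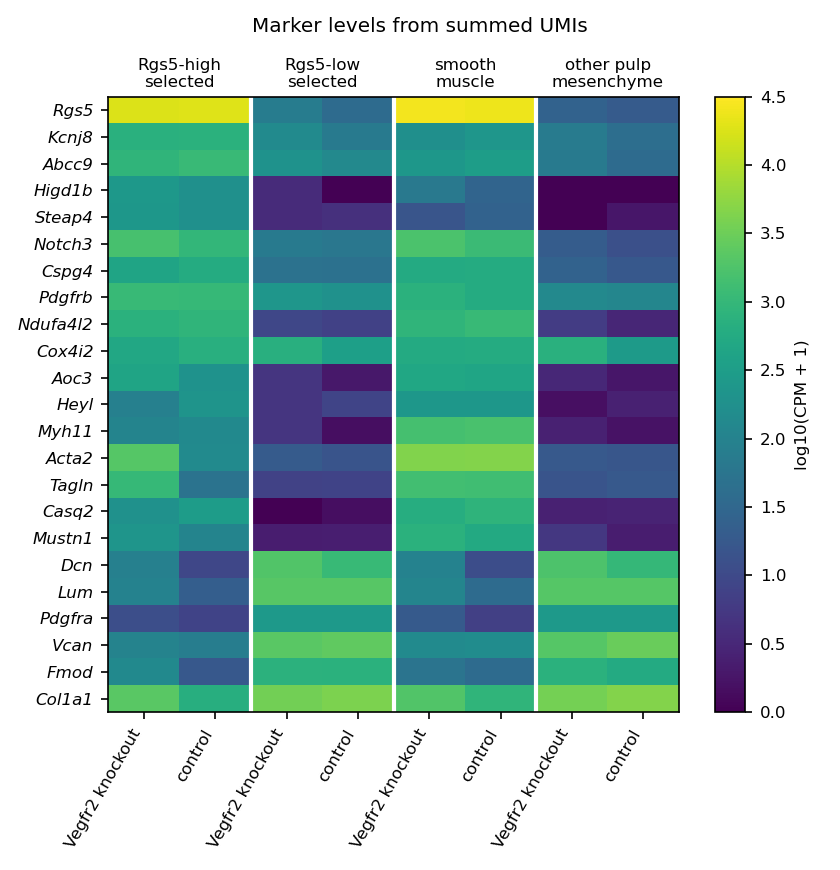
Levels of mural, contractile and pulp mesenchyme genes as log10(CPM + 1) from UMIs summed over the cells of each set, with the Vegfr2 knockout column left of the control column in each pair. Rgs5, Kcnj8, Abcc9, Higd1b and Steap4 are bright in the Rgs5-high columns, Dcn, Lum and Pdgfra in the Rgs5-low and other mesenchyme columns, and Acta2 stands at 2089 CPM in knockout and 139 CPM in control Rgs5-high cells.

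Within the Rgs5-high cells the summed levels of the ATP-sensitive potassium channel genes differed by less than 1.5-fold between the genotypes, while Abcc9 differed more in its median per cell. Kcnj8, the pore subunit, stood at 713 CPM in knockout and 757 CPM in control cells, a ratio of 0.941 (0.797 to 1.11), and was found in 35 of 37 and 87 of 88 cells. Abcc9, the regulatory subunit, stood at 881 CPM in knockout and 1107 CPM in control cells, a ratio of 0.796 (0.688 to 0.920). The interval for Kcnj8 includes equality and that for Abcc9 lies below it, and no replicate was available to judge either. Per cell, Kcnj8 had a median of 6.09 per 10000 in knockout and 7.22 in control Rgs5-high cells, against 1.25 and 1.64 in smooth muscle cells and 0.947 and 0.511 in Rgs5-low cells. The genes are neighbours on mouse chromosome 6, at chr6:142564837-142571614 (Kcnj8) and chr6:142587862-142702315 (Abcc9) in GRCm38, with 16247 bases between them, both on the minus strand.

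Of the other mural and pericyte markers of the rule, Notch3 differed by over 1.5-fold and the rest by less. Higd1b, a small mitochondrial protein, stood at 248 CPM in knockout and 184 CPM in control Rgs5-high cells (1.34, 0.994 to 1.80), and was seen in 21 and 33 cells. Its direction was not stable, with a ratio of 0.583 in Y-only cells and 2.33 under a stricter cell filter (minimum 1000 genes and 2000 UMIs, with no more than 5% mitochondrial). Steap4, a metalloreductase, stood at 240 and 182 CPM in 23 and 48 cells (1.32, 0.972 to 1.78). Rgs5 itself stood at 17947 and 18750 CPM, a ratio of 0.957 (0.927 to 0.989). Pdgfrb, the receptor through which endothelium retains pericytes, stood at 1076 CPM in knockout and 1035 CPM in control cells (ratio 1.04, 0.907 to 1.19). Notch3, a receptor needed for mural cell maturation, was higher at 1564 CPM in knockout and 962 CPM in control cells (1.63, 1.44 to 1.83), and stood at 1685 and 1154 CPM in smooth muscle cells.

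Compared with vascular smooth muscle cells (113 knockout and 155 control cells with the reverse balance of markers), the Rgs5-high cells differed by 2-fold in few genes. Of 6118 genes with at least 30 UMIs over both sets in each library, 68 (1.11%) were at least 2-fold higher and 131 (2.14%) at least 2-fold lower in both libraries. For all selected cells together the counts were 666 (8.3%) and 434 (5.41%) of 8027 genes. With Rgs5-low cells alone in their place, 759 genes were higher and 659 lower than in smooth muscle, among the genes measured there. In a separate contrast, Rgs5-high over Rgs5-low cells, 348 (6.28%) were higher and 609 (11%) lower of 5540 genes. The rule made these contrasts, so the counts describe the selection.

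Adgrf5, Thbs1 and Timp3 led the genes that the rule did not use and that stood highest over smooth muscle. Adgrf5, an adhesion G-protein-coupled receptor, stood at 225 CPM in knockout Rgs5-high cells and 20.1 CPM in knockout smooth muscle cells, and at 61.4 and 10.3 CPM in the control library, ratios of 11.2 (6.66 to 19.6) and 5.98 (3.6 to 10.2). Timp3, a matrix-bound inhibitor of metalloproteinases, stood at 1155 against 251 CPM in the knockout library and 565 against 63.8 CPM in the control library. Both genes were thus higher in Rgs5-high than in smooth muscle cells of either genotype, and higher again in the knockout than in the control Rgs5-high cells. Thbs1 (thrombospondin 1), Rora (a nuclear receptor), Col23a1 (a transmembrane collagen), Abca1 (a cholesterol exporter), Etv1 (an ETS factor), Slc29a1 (a nucleoside transporter), Plat (tissue plasminogen activator) and Loxl2 (a collagen cross-linking oxidase) were between 3.23 and 9.91 times higher than in smooth muscle in either library. For Plat the levels were 150 against 46.2 CPM in the knockout and 155 against 26.3 CPM in the control library.

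Genes lowest against smooth muscle were of several kinds, among them regulators of muscle genes, a sarcomeric protein, a laminin chain and a cadherin. Myocd, the cofactor of serum response factor that drives smooth muscle genes, was present as 2 UMIs and 1 UMI in Rgs5-high cells, or 7.50 CPM in knockout and 1.16 CPM in control, against 59.3 and 45.0 CPM in smooth muscle (ratios 0.127, 0.0150 to 0.478, and 0.0257, 0.000644 to 0.146). Rbm24, an RNA-binding splicing regulator of muscle, stood at 3.75 and 3.47 CPM against 89.4 and 55.3 CPM, and Myom1, a sarcomeric M-band protein, at 30.0 and 10.4 CPM against 190 and 142 CPM. Rcan2, an inhibitor of calcineurin, was 11.7 and 18.2 times lower than in smooth muscle, Cdh6, a cadherin, 7.61 and 6.43 times, and Lama5, a laminin chain, 6.65 and 6.39 times. Acan, the cartilage proteoglycan aggrecan, was at 0 CPM in knockout and 2.32 CPM in control Rgs5-high cells, against 270 and 192 CPM in smooth muscle. Of the 22 contractile genes measured outside the rule, 6 were at least 2-fold lower in both libraries, beside 2.14% of all genes, and 0 higher. Their median log2 ratio was -0.62 in the knockout library and -1.82 in the control library, beside -0.08 and -0.02 over all genes.

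**Figure D3:**
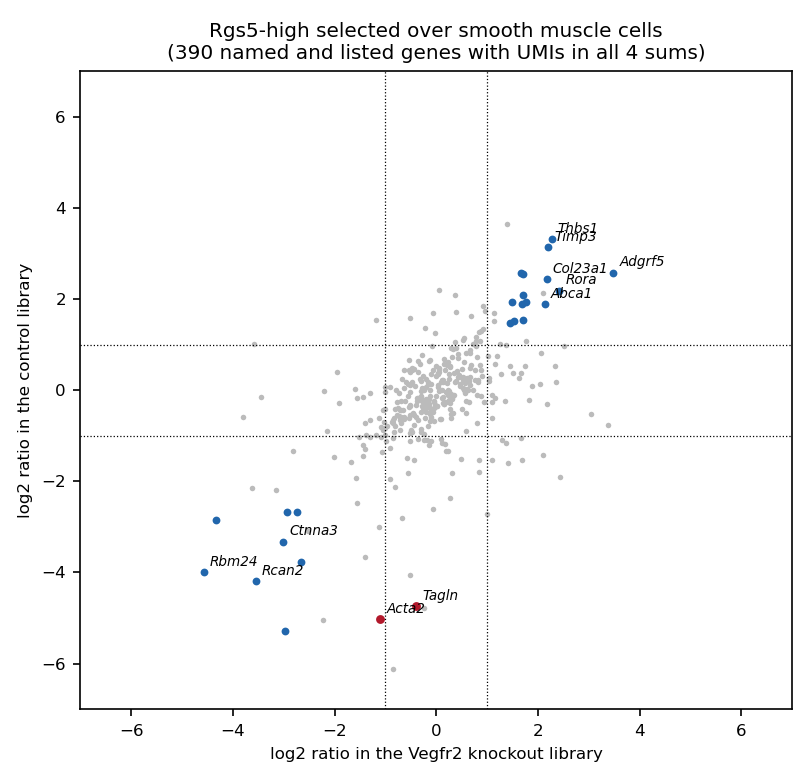
Log2 ratio of Rgs5-high selected cells over vascular smooth muscle cells for 390 named and listed genes, in the Vegfr2 knockout library (horizontal) and the control library (vertical); dotted lines mark 2-fold, blue points are the genes named for the largest differences in both libraries, and red points are Acta2 and Tagln. Adgrf5 and Thbs1 lie at the upper right and Rbm24 and Rcan2 at the lower left, while Acta2 and Tagln lie far down in the control library and less so in the knockout library.

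Against all kept cells without a mural call, the genes with the highest ratios in both libraries included Foxs1 (a forkhead factor), Ebf2 (an early B-cell factor family member), Rgs4 (a regulator of G-protein signalling) and Gucy1a1 and Gucy1b1, the subunits of the nitric oxide receptor guanylate cyclase. Over the 15 such genes, the smaller of the 2 libraries' ratios ran from 45.5 (Adamts15) to 442 (H2-M9).

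Against Rgs5-low cells, the Rgs5-high cells were higher for most basement membrane genes measured and for some genes of vascular contact. The rule and the cut on Rgs5, a mural gene, made this contrast, so the counts describe the selection. Over all 5540 genes, 6.28% were at least 2-fold higher and 11% lower in both libraries. Of 19 further pericyte genes measured, 14 were at least 2-fold higher and 1 lower in both libraries, with median log2 ratios of 3.16 in knockout and 3.41 in control. Aoc3, the vascular amine oxidase, stood at 428 against 3.97 CPM in the knockout library and 193 against 0.937 CPM in the control library. Col5a3, a minor fibrillar collagen chain, stood at 1249 against 10.6 CPM and 1220 against 13.1 CPM. These genes were close to absent in Rgs5-low cells of both genotypes. Of 20 basement membrane genes 11 were higher and 2 lower, among them Col4a1, the main chain of capillary basement membranes, at 3274 against 125 CPM and 2899 against 136 CPM. Mcam, an adhesion molecule of the vessel wall, Itga1, the collagen-binding integrin chain, and Kitl, the ligand of Kit, were 39.8 to 68.9 times higher. Rgs5-low cells were higher for cartilage- and stroma-type matrix genes. Col9a2 stood at 22.5 against 772 CPM in the knockout and 12.7 against 1240 CPM in the control library, and Matn4, matrilin 4, at 26.3 against 855 CPM and 4.63 against 403 CPM.

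The selected cells formed a smaller share of the knockout library. They made up 6.95% (5.78 to 8.27%) of kept knockout cells and 9.66% (8.49 to 10.9%) of kept control cells, a ratio of 0.720 (0.571 to 0.904). The Rgs5-high cells made up 2.20% (1.55 to 3.02%) of knockout and 3.78% (3.04 to 4.63%) of control cells, a ratio of 0.582 (0.385 to 0.863), and the Rgs5-low cells 4.75% and 5.88% (0.808, 0.605 to 1.07). Smooth muscle cells made up 6.71% and 6.66% (1.01, 0.785 to 1.29), so there were 0.327 Rgs5-high cells for each smooth muscle cell in the knockout and 0.568 in the control library. The ratio lay on opposite sides of 1 in Xist-only and Y-only cells, and whether the direction depends on sex was not tested. The Rgs5-high ratio was 0.400 among Xist-only cells and 2.36 among Y-only cells, where it rested on 16 knockout and 5 control cells. Dissociation and sorting set the shares of cells in a suspension, and the share in the tissue was not measured.

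Contractile genes were higher in the knockout Rgs5-high cells, and Acta2 and Tagln differed most among them. Comparing genotypes within Rgs5-high cells, 847 of 5671 genes (14.9%) were at least 1.5-fold higher and 1028 (18.1%) at least 1.5-fold lower in knockout. For all selected cells the counts were 983 (9.64%) and 1276 (12.5%) of 10201 genes. Of the 19 contractile genes measured, 12 were higher, 1 (Casq2) was lower and 6 lay between, and their median log2 ratio was 0.76 beside -0.04 over all genes. Acta2, smooth muscle actin (chr19:34241090-34255590), was counted as 557 UMIs in 26 of 37 knockout cells and 120 UMIs in 19 of 88 control cells, or 2089 and 139 CPM, a ratio of 15 (12.3 to 18.5). Per cell the median was 2.67 per 10000 and the highest 124 in knockout cells, against a median of 0 and a highest of 21.8 in control cells. At least 10 per 10000 were found in 11 knockout cells (29.7%, 15.9 to 47.0%) and 4 control cells (4.55%, 1.25 to 11.2%). The ranges overlap, since 11 knockout cells had no Acta2 UMI and the upper 4 control cells lay among the upper knockout cells.

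In the neighbouring cell sets the Acta2 ratio was lower. Acta2 stood at 4485 CPM in knockout and 4534 CPM in control smooth muscle cells, at 18.5 and 14 CPM in Rgs5-low cells and at 17.2 and 15.1 CPM in the other pulp mesenchyme cells, ratios of 0.989, 1.32 and 1.14. The Rgs5-low value rested on 14 and 30 UMIs (0.647 to 2.57), and was 0.533 in Xist-only cells, 6.91 in Y-only cells and 4.28 after thinning, so no direction can be given for it. The difference between the cell sets was not tested. In Rgs5-high cells the ratio was 11.5 among Xist-only and at least 30.0 among Y-only cells, where the 5 control cells held no Acta2 UMI, 12.2 after each cell was thinned to 2000 UMIs, 17.0 in cells without a UMI of Dcn, Lum or Pdgfra, and 15.9 without the cell with most Acta2 UMIs in each library. It stayed above 11-fold in these 5 settings, and was 38.3 under the stricter cell filter, which left 13 knockout and 41 control cells. The 6 smooth muscle markers, of which the rule balances 3, summed to 3631 CPM in knockout and 742 CPM in control Rgs5-high cells (per cell a median of 10.6 and a highest of 207 per 10000 in knockout, and 3.88 and 43.7 in control), with 1 marker at 0 in each. The part of these markers in the Acta2 ratio was not tested.

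**Figure D4:**
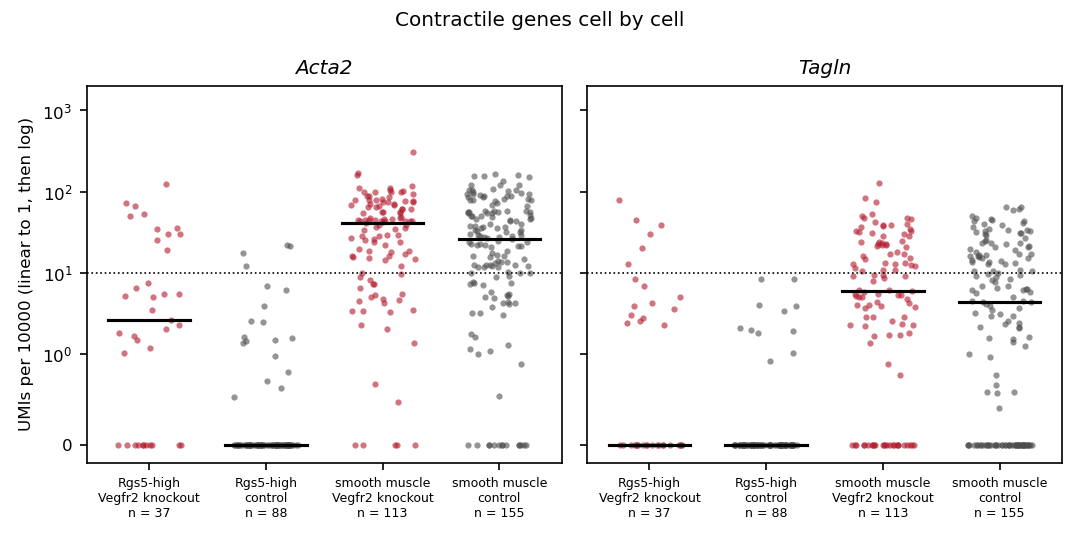
Acta2 and Tagln UMIs per 10000 in each Rgs5-high and each smooth muscle cell, Vegfr2 knockout (red) left of control (grey), on an axis linear to 1 and then logarithmic; bars are medians and the dotted line marks 10 per 10000. For Acta2, 11 of 37 knockout Rgs5-high cells lie on or above the line and 4 of 88 control cells do, against 86 of 113 and 110 of 155 smooth muscle cells.

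Other thin filament and myosin genes moved the same way by smaller amounts. Tagln, the actin-binding protein transgelin, stood at 1024 CPM in knockout and 49.8 CPM in control Rgs5-high cells, a ratio of 20.6 (14.9 to 29.1), in 17 and 11 cells, and at 1350 and 1328 CPM in smooth muscle. Its top cell held 33.0% of the knockout UMIs, and the ratio was 19.1 without the top cell of each library, 14.6 in Xist-only cells and 92.9 under the stricter filter. Myl9, the regulatory myosin light chain, stood at 1148 and 262 CPM (4.39, 3.68 to 5.23) and at 1835 and 1816 CPM in smooth muscle. Tpm1, a tropomyosin, stood at 1778 and 713 CPM (2.49, 2.21 to 2.81), found in all 37 knockout and 75 of 88 control cells. Lmod1, the actin nucleator leiomodin, stood at 78.8 and 19.7 CPM (4, 2.01 to 8.08). Its ratio was 1.53 after thinning and ran from 1.14 to 4.16 over 13 alternative settings. Vim (vimentin), Csrp1 and Ppp1r14a (a phosphatase inhibitor) were 2.12, 2.48 and 2.39 times higher, and Mylk (myosin light chain kinase), Tpm2 and Cald1 (caldesmon) 1.69, 1.65 and 1.59 times. Not every contractile gene followed. Myl6 stood at 1294 and 1318 CPM, Des (desmin) at 37.5 and 35.9 CPM and Smtn (smoothelin) at 45.0 and 37.0 CPM. The rule's own markers were split, with Mustn1 at 225 and 108 CPM, Myh11 at 105 and 138 CPM and Casq2, a calcium-binding protein of the sarcoplasmic reticulum, at 188 and 308 CPM.

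Smooth muscle genes are known to carry CArG boxes, the binding motif of serum response factor, in their promoters. The 250 bases before the annotated start were read from the RefSeq promoter table (GRCm38.p6) for Acta2, Myl9 and Lmod1, chosen after their values were seen. They were also read for the channel genes Kcnj8 and Abcc9, whose summed levels did not differ by 1.5-fold. Matches to the CArG box with up to 1 base of difference are in capitals; the box reads the same on both strands, so a match counts once. Tagln, which had the highest contractile ratio, had no entry there. The gene spans given above place the starts of Acta2 and Abcc9 further upstream, so these windows lie partly inside those spans. Acta2 is shown for chr19:34255374-34255623 (minus strand), Myl9 for chr2:156775214-156775463 (plus), Lmod1 for chr1:135324563-135324812 (plus), Kcnj8 for chr6:142571615-142571864 (minus) and Abcc9 for chr6:142702275-142702524 (minus).
Acta2: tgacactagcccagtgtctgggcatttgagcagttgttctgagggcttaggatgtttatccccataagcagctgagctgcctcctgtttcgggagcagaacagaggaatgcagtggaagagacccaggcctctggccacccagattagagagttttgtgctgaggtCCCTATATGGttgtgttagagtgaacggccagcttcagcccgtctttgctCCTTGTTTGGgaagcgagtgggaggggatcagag
Myl9: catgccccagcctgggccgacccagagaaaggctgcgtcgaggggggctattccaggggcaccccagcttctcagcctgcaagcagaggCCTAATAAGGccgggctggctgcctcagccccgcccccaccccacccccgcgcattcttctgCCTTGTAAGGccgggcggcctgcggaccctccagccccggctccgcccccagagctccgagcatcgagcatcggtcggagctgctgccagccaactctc
Lmod1: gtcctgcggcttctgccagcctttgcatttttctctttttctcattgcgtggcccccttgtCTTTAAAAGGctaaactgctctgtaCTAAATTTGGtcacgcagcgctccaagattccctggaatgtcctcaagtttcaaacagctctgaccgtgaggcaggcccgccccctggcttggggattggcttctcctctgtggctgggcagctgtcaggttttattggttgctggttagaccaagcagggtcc
Kcnj8: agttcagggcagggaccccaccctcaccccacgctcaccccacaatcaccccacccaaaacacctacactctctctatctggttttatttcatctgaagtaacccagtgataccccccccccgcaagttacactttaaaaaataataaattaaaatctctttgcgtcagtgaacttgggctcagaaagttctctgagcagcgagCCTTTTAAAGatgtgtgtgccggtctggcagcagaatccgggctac
Abcc9: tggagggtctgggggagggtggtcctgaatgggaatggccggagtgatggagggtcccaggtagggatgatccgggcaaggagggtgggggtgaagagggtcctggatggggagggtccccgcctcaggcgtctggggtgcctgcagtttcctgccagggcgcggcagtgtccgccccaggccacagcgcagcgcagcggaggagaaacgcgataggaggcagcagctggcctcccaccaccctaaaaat
The Acta2 window holds 2 matches, beginning 84 and 34 bases before the start, Myl9 2 (161 and 99, of which 1 is exact), Lmod1 2 (189 and 164), Kcnj8 1 (46) and Abcc9 0. Across all 32851 windows of 250 bases (27025 genes), 18.6% held at least 1 such match and 2.96% at least 2. Among 32 windows of 26 genes of the contractile list, 10 held at least 1 and 5 (15.6%) at least 2. The matches did not follow the direction of the genotype difference. Casq2, which was lower in knockout, held 2 that overlap, beginning 43 and 42 bases before the start. They were counted as 2 above. Tpm1, which was higher, held 2 apart from each other (221 and 80). Cald1, also higher, held 1 in 1 of its windows, and Mylk, Tpm2, Csrp1, Ppp1r14a, Vim and Mustn1, higher too, held 0. A match describes the letters of the window and is neither a shown binding site nor a cause of the level, and the absence of one says nothing of the factor.

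Immediate early genes, which respond within minutes to growth factors and to stress, including that of tissue dissociation, were higher in knockout Rgs5-high cells almost throughout. Of 21 measured, 19 were at least 1.5-fold higher and 0 lower, with a median log2 ratio of 1.56. Over all genes 14.9% were higher and 18.1% lower. Fos stood at 1763 CPM in knockout and 494 CPM in control cells (3.57, 3.12 to 4.08), and was found in 33 of 37 and 54 of 88 cells. Egr1 stood at 1148 and 410 CPM (2.80, 2.40 to 3.27) and Klf6, a zinc finger factor, at 476 and 108 CPM (4.42, 3.36 to 5.85). Jun, Junb, Fosb and the nuclear receptor Nr4a1 were 2.43 to 3.21 times higher. The exceptions were Ier2 (191 and 210 CPM) and Myc (37.5 and 41.7 CPM). Smooth muscle cells showed part of the same difference, with Fos at 1108 and 404 CPM (2.74) and Egr1 at 739 and 410 CPM (1.80), while in Rgs5-low cells Fos stood at 772 and 911 CPM (0.848) and the list's median log2 ratio was 0.34.

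Of 20 endoplasmic reticulum and heat shock genes measured in Rgs5-high cells, 8 were higher and 3 lower in knockout, with a median log2 ratio of -0.08. The share higher was above the 14.9%, and the share lower below the 18.1%, over all genes. Hspa1a, an inducible cytosolic chaperone, stood at 1466 CPM in knockout and 192 CPM in control Rgs5-high cells (7.63, 6.35 to 9.21), with 26.3% of the knockout UMIs in 1 cell. Its ratio was 2.95 in Y-only cells, 4.81 in cells without a UMI of Dcn, Lum or Pdgfra and 11.6 under the stricter filter. Its partner Dnajb1 stood at 173 and 25.5 CPM and Hsp90aa1 at 829 and 381 CPM. The endoplasmic reticulum proteins Calr (calreticulin) at 296 and 499 CPM (0.594, 0.461 to 0.756) and Hsp90b1 at 428 and 649 CPM (0.658, 0.534 to 0.807), and Xbp1, a factor of the unfolded protein response, at 45.0 and 96.1 CPM (0.468, 0.233 to 0.863), were the 3 lower genes, and Ddit3, a factor of the same stress response, was higher at 86.3 and 27.8 CPM (3.11, 1.67 to 5.74). In smooth muscle Hspa1a stood at 356 and 176 CPM.

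The genes with the highest ratios that met the naming rule included regulators of retinoic acid, BMP and YAP signalling. Cyp26b1, the enzyme that breaks down retinoic acid, stood at 773 CPM in knockout and 16.2 CPM in control Rgs5-high cells, a ratio of 47.7 (27.8 to 88.7), in 24 of 37 and 5 of 88 cells. It was at least 8.37 in Y-only cells, with no control UMI, and 66.4 in Xist-only cells. In smooth muscle Cyp26b1 stood at 144 and 61.1 CPM (2.35, 1.85 to 2.99) and in Rgs5-low cells at 17.2 and 8.90 CPM, so the gene was highest in the Rgs5-high knockout cells. Fst (follistatin, an activin antagonist) stood at 285 and 17.4 CPM (16.4, 9.35 to 30.8; at least 5.2 in Y-only cells, 6.14 when each cell counts equally and 41.8 under the stricter filter). Cyr61, a secreted target of YAP and of serum response factor, stood at 488 and 44.0 CPM (11.1, 7.67 to 16.4) but at a ratio of 1.90 in Y-only and 18.3 in Xist-only cells, and it stood at 152 and 127 CPM in smooth muscle. Errfi1, a feedback inhibitor of EGF receptor signalling, stood at 405 and 63.7 CPM (6.36, 4.56 to 8.97). Bmp2, a bone morphogenetic protein, at 150 and 6.95 CPM (21.6, 9.10 to 62.3), and the kinase Nuak1, at 139 and 4.63 CPM, were each counted as 7 UMIs in the Y-only knockout cells and 0 UMIs in the 5 Y-only control cells, too few to give a direction there. Amotl2 (angiomotin-like 2), Nr4a3, Pdlim5, Tob1, Sik1 and Pawr were 6.28 to 11.3 times higher. In Y-only cells the ratios were 7.61 for Nr4a3, 3.80 for Tob1 and 2.47 for Sik1, each on 1 or 2 control UMIs, and Amotl2, Pdlim5 and Pawr had no control UMI.

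Signals between mural cells and endothelium were split. Angpt2, the Tie2 ligand that loosens vessels, stood at 188 CPM in knockout and 53.2 CPM in control Rgs5-high cells (3.52, 2.31 to 5.38), in 19 and 28 cells, with a ratio of 2.30 after thinning, and at 87.4 and 80.7 CPM in smooth muscle. Pdgfa, a platelet-derived growth factor, stood at 263 and 130 CPM (2.03, 1.48 to 2.75). Igf1, insulin-like growth factor 1, was lower at 364 and 945 CPM (0.385, 0.309 to 0.476). Its ratio was 0.291 without the top cell and ran from 0.264 to 0.630 over 13 alternative settings. The heparin-binding growth factors Ptn, at 56.3 and 140 CPM, and Mdk, at 206 and 370 CPM, were also lower. Pgf, placental growth factor, stood at 41.3 and 193 CPM (0.213), with 54.5% of its 11 knockout UMIs in 1 cell, and at 0.104 without it. Vegfa stood at 71.3 and 54.4 CPM (1.31, 0.726 to 2.27), a difference not detectable at this depth. Of the 11 vessel ligands and receptors measured, 2 were higher and 4 lower, beside 14.9% higher and 18.1% lower over all genes. Of 21 TGF-beta and BMP genes 8 were higher and 2 lower, with a median log2 ratio of 0.51 that was 0.03 after thinning and -0.34 in Y-only cells. Ctgf stood at 161 and 42.8 CPM (3.77, 2.37 to 6.01) and Id4, an inhibitor of helix-loop-helix factors, at 765 and 350 CPM (2.19, 1.82 to 2.62).

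Further pericyte genes were called about as often as genes in general. Of 30 measured, the rule's markers included, 4 were higher and 6 lower, with a median log2 ratio of -0.20, beside 14.9% higher and 18.1% lower over all genes. Aoc3 stood at 428 CPM in knockout and 193 CPM in control cells (2.21, 1.73 to 2.82) and Mcam at 548 and 302 CPM (1.81, 1.47 to 2.23). Heyl, a Notch target repressor, stood at 90.0 and 216 CPM (0.416, 0.260 to 0.638) and so went opposite to Notch3, and Art3, a surface ADP-ribosyltransferase family member, at 33.8 and 148 CPM (0.228, 0.102 to 0.446). Of 11 Notch pathway genes 4 were higher and 1, Heyl, lower. Hes1 stood at 334 and 288 CPM, Hey1 at 116 and 135 CPM and Jag1 at 244 and 229 CPM. Among 27 transcription factors 4 were higher, such as Nr2f2 at 904 and 536 CPM, and 4 lower, such as Tbx2 at 214 and 476 CPM (0.449, 0.334 to 0.594), again close to the shares over all genes. Vasoactive receptors (2 higher and 3 lower of 14) and ion channels (4 higher and 1 lower of 19) had medians of -0.22 and -0.06. Ano1, the calcium-activated chloride channel, stood at 199 and 328 CPM. PDGF pathway genes (2 higher and 0 lower of 4), adhesion genes (1 and 3 of 16), inflammation genes (4 and 1 of 12) and interferon genes (1 and 1 of 9) complete the lists.

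Fibrillar matrix genes were higher in knockout Rgs5-high cells, while the main basement membrane chains were close. Of 26 fibrillar and elastic matrix genes, 12 were higher and 2 lower, with a median log2 ratio of 0.52 that was 0.20 under the stricter cell filter. Over all genes 14.9% were higher and 18.1% lower. Col1a1 stood at 2269 CPM in knockout and 660 CPM in control cells (3.44, 3.06 to 3.86), at 2.38 in Xist-only and 2.37 under the stricter filter. Col1a2 stood at 1410 and 395 CPM (3.57, 3.08 to 4.15; 10.8 in Y-only cells, 2.38 after thinning), and Thbs1 at 266 and 48.6 CPM (5.48, 3.69 to 8.22). Single cells weighed on other genes, since 61.6% of the Eln (elastin) UMIs, 45.8% of Dcn and 73.1% of Lum came from 1 knockout cell. The 8 pulp mesenchyme markers, to which Col1a1, Col1a2, Dcn and Lum belong, summed to 4302 CPM in knockout and 1591 CPM in control Rgs5-high cells, with a median per cell of 21.4 and 11.5 and a highest of 194 and 121 per 10000, and none at 0. In cells without a UMI of Dcn, Lum or Pdgfra the ratio was 4.47 for Col1a1 and 3.04 for Col1a2. Of 21 basement membrane genes 2 were higher and 3 lower, both below the shares over all genes. Col4a1 stood at 3274 and 2899 CPM (1.13, 1.04 to 1.22), Tinagl1, a matricellular protein, at 473 and 131 CPM (3.61, 2.78 to 4.70), and Col18a1, the precursor of endostatin, at 128 and 259 CPM (0.492, 0.332 to 0.708).

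Glycolytic and hypoxia-responsive genes were higher in knockout cells of both subsets. Of 25 measured in Rgs5-high cells 12 were higher and 0 lower, with a median log2 ratio of 0.58 that was 0.36 in cells without stromal UMIs. Over all genes 14.9% were higher and 18.1% lower. Eno1 (enolase) stood at 285 CPM in knockout and 66.0 CPM in control cells (4.32, 3.02 to 6.20), Aldoa (aldolase) at 495 and 206 CPM (2.40, 1.90 to 3.03) and Ldha (lactate dehydrogenase) at 510 and 266 CPM (1.92, 1.54 to 2.38; 1.44 after thinning). In smooth muscle Ldha stood at 294 and 287 CPM (1.03) and Eno1 at 191 and 93.2 CPM (2.05). The mitochondrial genes Ndufa4l2 and Cox4i2, which belong to this list and mark pericytes, stood at 750 and 894 CPM and at 495 and 700 CPM. Of 26 respiratory chain genes 2 were higher and 3 lower, both below the shares over all genes.

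Cycling transcripts were rarer in the knockout selected cells. Summed over all 34 proliferation genes, with no minimum per gene, the level was 814 CPM in knockout and 2529 CPM in control Rgs5-high cells (0.322, 0.279 to 0.370), and 1293 and 2129 CPM in smooth muscle cells (0.607). The control sum was carried by few cells, 25.6% of it by 1, and the median per cell was 5.92 per 10000 in knockout and 7.56 in control. Of the 15 genes with 30 UMIs over both libraries, 14 reached 30 in the control library alone and 2 in the knockout library alone, so most entered through the library where they were high. The 14 that were lower and the list median of -1.84 are therefore only a description. Top2a, the topoisomerase of dividing cells, was counted as 1 UMI in 1 of 37 knockout cells and 156 UMIs in 7 of 88 control cells (0.0208, 0.000523 to 0.117), and 37.2% of the control UMIs came from 1 cell. Mki67 was counted as 1 UMI in 1 knockout cell and 132 UMIs in 8 control cells (0.0245, 0.000617 to 0.139). Under the stricter filter, and without the cell with most UMIs, neither gene had a knockout UMI. Of 9 cell cycle brakes 4 were higher and 0 lower, beside 14.9% higher and 18.1% lower over all genes. Btg2, an antiproliferative p53 target that is also an immediate early gene, stood at 821 and 331 CPM (2.48, 2.07 to 2.97).

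The lowest ratios in knockout Rgs5-high cells belonged to genes with few knockout UMIs. Lgi1, a secreted leucine-rich protein, was counted as 3 UMIs in 3 knockout cells and 87 UMIs in 39 control cells (0.112, 0.0226 to 0.337), at 0.492 after thinning. Rapgef4, Nr6a1, Hist1h1c and Orc4 each had 1 knockout UMI, against 50, 43, 37 and 35 control UMIs, and Cisd3 had 0 against 77 (at most 11.3 CPM for 3 counts, against 89.1 CPM). Mt3, a metallothionein, stood at 41.3 and 352 CPM in 4 and 25 cells (0.117, 0.0579 to 0.213), and all 3 metallothioneins were lower. All 3 reached the UMI minimum for a comparison in the control library alone, and 0 did in the knockout library alone. The metallothioneins thus entered through the library where they were high, and their count is only a description. AY036118, a transcript with ribosomal RNA sequence, stood at 158 and 1703 CPM (0.0925, 0.0664 to 0.126). It was also lower in knockout smooth muscle (164 and 529 CPM) and macrophage-marker cells (44.9 and 339 CPM), so its difference ran through the library. Better counted genes were lower too. Mgp, matrix Gla protein, an inhibitor of calcification and of BMP2, stood at 986 and 2822 CPM (0.350, 0.307 to 0.397; 0.269 without the top cell, 0.594 under the stricter filter), and Postn, periostin, at 188 and 403 CPM (0.466, 0.339 to 0.628).

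The summed level of progenitor and mineralised tissue genes was lower in knockout Rgs5-high cells. Summed over the 20 genes of that list the level was 1695 CPM in knockout and 4384 CPM in control Rgs5-high cells (0.387, 0.350 to 0.426), against 1293 and 1220 CPM in smooth muscle (1.06). Of 8 genes measured, 1 was higher and 4 lower, with a median log2 ratio of -0.93, beside 14.9% higher and 18.1% lower over all genes. Of the 8, 7 reached 30 UMIs in the control library alone and 4 in the knockout library alone. Some thus entered only through the library where they were high, and the count and median are only a description. Mgp, given above, was the largest part of the sum in both libraries. Spp1, the mineral-binding protein osteopontin, stood at 180 and 887 CPM (0.203, 0.148 to 0.272), in 5 of 37 and 18 of 88 cells, with 43.8% of the knockout UMIs in 1 cell. Sp7, the bone factor osterix, was counted as 4 and 44 UMIs and Thy1, a surface protein, as 4 and 58. Nes (nestin) stood at 240 and 213 CPM (1.13, 0.834 to 1.51).

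**Figure D5:**
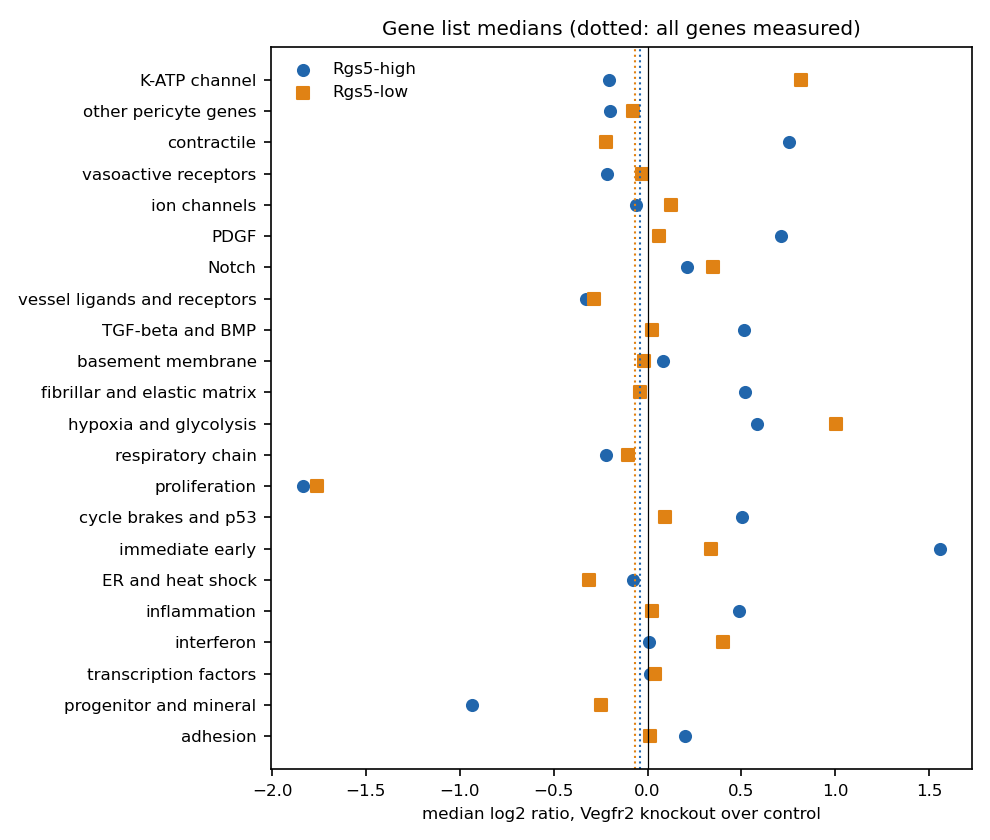
Median log2 ratio of Vegfr2 knockout over control for each gene list measured in both subsets, in Rgs5-high cells (blue circles) and Rgs5-low cells (orange squares); dotted lines are the medians over all genes measured in each subset (-0.04 and -0.07) and the solid line is 0. Proliferation (-1.84), immediate early (1.56), progenitor and mineral (-0.93) and contractile (0.76) lie farthest out in Rgs5-high cells. Hypoxia and glycolysis (1.01) and proliferation (-1.76) do so in Rgs5-low cells. Most proliferation genes, and some progenitor and mineral genes, were measured only through the control library, where they were high. The medians of these lists are therefore only a description.

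In Rgs5-low cells hypoxia and glycolysis genes were higher in knockout. The summed level of proliferation transcripts was lower, but their median per cell was not. Of 9170 genes, 853 (9.3%) were at least 1.5-fold higher and 1247 (13.6%) at least 1.5-fold lower in knockout. Of 26 hypoxia and glycolysis genes 18 were higher and 0 lower, with a median log2 ratio of 1.01 (0.79 in Xist-only and 1.65 in Y-only cells). Ldha stood at 731 CPM in knockout and 243 CPM in control cells (3, 2.66 to 3.39), in 77 of 80 and 123 of 137 cells, and Vegfa, the ligand of Vegfr2, at 227 and 83.4 CPM (2.72, 2.19 to 3.37). The other pulp mesenchyme cells showed the same difference, with Ldha at 633 and 224 CPM (2.82) and Vegfa at 211 and 66.0 CPM (3.20). Ankrd37, a target of hypoxia-inducible factor, stood at 75.5 and 11.7 CPM (6.45, 3.97 to 10.8). The 34 proliferation genes summed to 1501 and 2465 CPM (0.609, 0.571 to 0.649), with a median per cell of 14.8 and 14.6 per 10000 and 18.7% of the control UMIs in 1 cell. Of the 22 measured, 19 reached 30 UMIs in the control and 4 in the knockout library alone, so most entered through the library where they were high. The 18 that were lower (median -1.76, and -0.41 after thinning) are therefore only a description. Top2a was counted as 7 UMIs in 6 knockout cells and 203 UMIs in 17 control cells, 52.2% of them in 1 cell. Of 15 contractile genes 1 was higher and 4 lower, with a median of -0.22, and of 21 immediate early genes 6 were higher and 1 lower.

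The rule's channel markers were higher in the knockout Rgs5-low cells, near the threshold at which such cells were selected. Each such cell needed at least 1 UMI of the pericyte markers, and median depth was 8890.5 UMIs in knockout and 13423 in control. The part of the rule and of depth in the ratios was not tested. Kcnj8 stood at 139 CPM in knockout and 68.4 CPM in control cells (2.03, 1.57 to 2.63), with 1.30 in Xist-only and 7.56 in Y-only cells, and Abcc9 at 195 and 128 CPM (1.52, 1.24 to 1.87). In the other pulp mesenchyme cells Kcnj8 stood at 72.2 and 40.4 CPM (1.78, 1.42 to 2.24) and Abcc9 at 67.9 and 36.9 CPM (1.84, 1.45 to 2.33). These cells were kept for lacking a mural call, in which Abcc9 counts, so the rule shaped this set too. The levels of the channel genes were higher in the knockout library in this set as well, which is no independent check. Cox4i2, a cytochrome oxidase subunit isoform, stood at 692 and 340 CPM (2.03, 1.81 to 2.28) in Rgs5-low cells.

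Single genes of Rgs5-low cells also differed. Ptn stood at 321 CPM in knockout and 900 CPM in control cells (0.356, 0.311 to 0.408). Msx1, a homeobox factor of tooth mesenchyme, stood at 700 and 362 CPM (1.93, 1.73 to 2.16) and Bmp4, its partner in tooth development, at 119 and 52.0 CPM (2.29, 1.72 to 3.06). Both were higher in the knockout cells. Dcn stood at 1917 and 1078 CPM (1.78, 1.66 to 1.90) while Lum stood at 2116 and 2124 CPM (0.996, 0.941 to 1.06). Caprin2, an RNA-binding protein, stood at 140 and 20.6 CPM (6.82, 4.75 to 9.92). Gstp1, a glutathione transferase, stood at 102 and 8.43 CPM (12.1, 7.18 to 21.5), and also at 63.8 and 4.63 CPM in Rgs5-high, 108 and 9.36 CPM in smooth muscle and 53 and 3.01 CPM in macrophage-marker cells. Its difference therefore ran through every cell set measured, between libraries whose matrices were written by different software versions, and genotype and software cannot be told apart.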

How the data were processed

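Deposited files were filtered matrices of UMI counts, which the authors made with Cell Ranger: the knockout matrix by version 6.0.1 and the control matrix by 5.0.0, per the file headers, whereas the submitters' processing notes name 6.0.1 and the build mm10. Each holds 31053 genes; 0 columns lacked a sample. No aligner setting or ambient correction is given in the sources used here.

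Cells were chosen as described, and UMIs were summed per library and cell set and divided by the set's total (CPM). Rgs5-high sums held 266622 UMIs in the knockout and 863861 in the control library, Rgs5-low sums 754757 and 2135570, so 3 counts amount to 11.3 and 3.47 CPM, and 3.97 and 1.40 CPM. Ratios carry exact conditional Poisson intervals and shares exact Clopper-Pearson intervals, at 95%. With 1 library per genotype no test was run. Genes entered a comparison with at least 30 UMIs over both libraries (for cell sets, over both sets in each library), and a sum of 0 was set to 3 counts for calls and list medians, where the ratio is a bound. Genotype calls used 1.5-fold, cell set calls 2-fold in both libraries. Smooth muscle cells are mural cells with the reverse marker balance, pulp mesenchyme cells had at least 4 of 8 markers and macrophage-marker cells at least 3 of 7.

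Named genes are the members of 23 gene lists, the rule's genes, and the 12 highest and 12 lowest genotype ratios (15 and 12 for cell sets) among genes seen in at least 10 cells of the higher library, with at most 25% of its UMIs in 1 cell and a level at least 50% of that in non-mural cells; Xist, Y-linked, mitochondrial, haemoglobin and unnamed genes were left out. Members and lists were chosen with earlier results of these data known. Scrublet in scanpy, at 0.8% expected per 1000 cells, called 4 knockout and 20 control doublets, of which 0 and 2 were selected and 0 were Rgs5-high, and they were kept. The barcode lists shared 3 barcodes, none selected. Python 3.11.15, numpy 2.4.6, scipy 1.17.1, pandas 2.3.3, scanpy 1.11.5, anndata 0.12.19 and matplotlib 3.10.9 were used, and the scripts were tested on simulated counts.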

Additional observations from a re-analysis of the deposited data

Results flagged for a closer look

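H19, an imprinted long non-coding RNA of growing tissue, had opposite genotype differences in the subsets, with a log2 ratio of 5.23 in Rgs5-high and -3.99 in Rgs5-low cells. It was counted as 81 UMIs in 7 of the Rgs5-high knockout cells and 7 UMIs in 4 of the control cells, and as 4 UMIs in 3 of the Rgs5-low knockout cells and 180 UMIs in 27 of the control cells. Its largest single cell held 34.6% of the Rgs5-high knockout UMIs.

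Amotl2, a scaffold protein of the Hippo pathway, was likewise split, with a log2 ratio of 3.5 in Rgs5-high cells (158 CPM in knockout and 13.9 CPM in control) and -1.15 in Rgs5-low cells (9.27 CPM in knockout and 20.6 CPM in control). In Rgs5-low cells the ratio was 0.450 (0.171 to 1.01), an interval that includes equality. For both genes the difference between the subsets was not tested, since each subset came from 1 library per genotype.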

How the results depend on the processing

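The depth of the Rgs5-high sums, the sex mix and the lack of a replicate limit these results. No paired analysis was possible because each genotype has 1 library. The Rgs5 subsets, and the setting without cells holding a UMI of Dcn, Lum or Pdgfra, were added after seeing the data. Among shares and counts of genes, 56 values kept direction and size, 27 moved and 2 reversed; among single genes and lists 1818 kept, 253 moved and 8 reversed. The share of selected cells (0.720) was 0.489 under the stricter cell filter. It reversed to 1.48 in Y-only cells, on 30 knockout and 15 control cells, where the Rgs5-high share was 2.36. Genes higher in knockout (983) numbered 466 in Y-only cells, 458 after thinning, 407 with at least 100 UMIs, 2543 with no minimum and 314 at 2-fold. Genes lower in knockout (1276) numbered 374, 559, 471, 2071 and 463 in the same settings. Genes higher than in smooth muscle (666) numbered 258 under the stricter filter, 317 with 4 mural genes, 156 in Y-only cells, 197 after thinning, 281 with at least 100 UMIs, 1154 with no minimum, 1092 at 1.5-fold and 68 in Rgs5-high cells. Genes lower (434) numbered 284, 218, 200, 173 and 273 in the first 5 of these settings, 781 at 1.5-fold, 131 in Rgs5-high and 659 in Rgs5-low cells.

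Called ratios that crossed 1 in Y-only cells were Zim1 2.66 and Atcayos 0.500 in selected cells, Cdkn1a 0.475 in Rgs5-high cells, and Zim1 3.46, H19 2.59 and Atcayos 0.216 in Rgs5-low cells; after thinning they were Syndig1 1.14 in selected and Golm1 1.71 in Rgs5-low cells. Each rests on at most 5 UMIs in either library. A further 22 called ratios had a sum of 0 in 1 library under an alternative and too few UMIs in the other to give a direction, and got no value there. Ratios under 1.5-fold that crossed 1 were, in Rgs5-high cells, Higd1b (0.583 in Y-only cells), Vegfa (0.428 in Y-only cells, 0.766 after thinning, 0.736 with each cell equal and 0.899 with a 2-fold marker margin), Slc2a1 (0.652 without the top cell), Kcnj8 (at most 1.24, in Y-only cells), Rgs5 (at most 1.09) and Pdgfrb (at least 0.890), and in Rgs5-low cells Acta2 (0.533 in Xist-only cells and 0.922 with ties). The cause was not tested.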
